A study of Mus musculus with 6 samples.

Results

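The dual-specificity MAP kinase phosphatases were examined as 10 genes, Dusp1, Dusp2, Dusp4, Dusp5, Dusp6, Dusp7, Dusp8, Dusp10, Dusp14 and Dusp16, chosen by symbol from the 54532 genes of the expression table. All 10 passed the filter of at least 1 TPM (a transcript level scaled to gene length and to the library total) in at least 2 of the 6 libraries, as did 12755 genes in all, and Dusp14 passed it through the LPS-treated libraries alone. The libraries were made from poly-A RNA of primary bone-marrow-derived macrophages (BMDMs) of C57BL/6 mice, grown in medium conditioned by L929 cells, and there were 3 groups of 2. Untreated BMDMs received neither agent (Untr), others were given LPS at 100 ng/ml for 2 h (LPS), and the remaining BMDMs were kept in 5 mM metformin for 6 h before the same LPS exposure (Met + LPS). No group with metformin and without LPS was analysed here, so Met + LPS was compared with LPS and with untreated cells. The study's methods say that BMDMs for RNA-seq were seeded in duplicate. Nothing in the sources says that the libraries of a group came from separate mice, and p-values then measure the spread between these libraries, which may be technical. With 2 libraries against 2, an exact permutation test cannot go below p = 0.333, and the tests below come from a limma fit across all 12755 genes.

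MAP kinase phosphatases remove the phosphates from the threonine and tyrosine of the activation loop of ERK, JNK and p38, and so switch these kinases off. LPS from bacterial cell walls activates all of these kinases in macrophages through TLR4, and several of the phosphatases are immediate early or delayed early genes that act as feedback on the pathway. Metformin, a drug for type-2 diabetes, inhibits complex I of the respiratory chain and activates AMPK.

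The members were ordered by role. Dusp1 (MKP-1), Dusp2 (PAC-1), Dusp4 (MKP-2) and Dusp5 make up the nuclear, inducible group, Dusp6 (MKP-3) and Dusp7 (MKP-X) the cytoplasmic group that prefers ERK, and Dusp8, Dusp10 (MKP-5) and Dusp16 (MKP-7) the group that prefers JNK and p38. Dusp14 (MKP-6) is a small atypical phosphatase without the kinase-binding domain of the others. The depth was 25457016 to 30762755 reads on genes per library. The 9 macrophage markers reached 1 TPM in every group, although their summed level went from 44759 to 46739 TPM in untreated libraries to 37424 to 37915 in LPS and 30890 to 30960 in Met + LPS. Most of that sum was Lyz2, at 34912, 26835 and 21292 TPM, whereas Cd14 rose with LPS from 955 to 2763 TPM and Adgre1 from 1543 to 1717 TPM, and Cd68 measured 4777 TPM after LPS and 4783 TPM with metformin before it. Of 14 markers of other cells, 2 (Elane and S100a8, of neutrophils and their precursors) reached 1 TPM, with summed levels of 20.5 to 25.8, 12.9 to 17.8 and 24.98 to 26.5 TPM. Their part in the results was not tested. In bulk RNA, fewer cells of a type and less RNA per cell cannot be told apart.

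The sequences before the RefSeq start of Dusp1, Dusp8 and Dusp5 are shown because 2 short motifs, the cyclic AMP response element (CRE) TGACGTCA and the CArG box of serum response factor, occurred in them. RefSeq promoters of GRCm38.p6 were searched over the 250 bases before each gene's start, on both strands, for 9 members (all but Dusp4) and for 32851 windows in all. A CRE occurred in 2 of 9 members and in 1.55% of all windows. In Dusp1 it lay 143 to 136 bases before the start, and Dusp8 held a pair of them, at 107 to 100 and at 63 to 56 bases. Dusp5 held adjoining CArG boxes at 82 to 73 and 72 to 63 bases before its start, and 1.47% of all windows held this motif. The shorter CRE core TGACG, which is also part of each full CRE, occurred in 4 of 9 members (Dusp1, Dusp5, Dusp8 and Dusp16) and in 17.8% of windows. The AP-1 motif TGANTCA (6.75% of windows), the NF-kB motif (5.93%), the C/EBP-ATF motif TGATGNAA (3.45%) and TATAAA (12.4%) occurred in 0 of 9, and the E-box CACGTG in 2 of 9 (Dusp1 and Dusp2) against 6.02% of windows. A match describes letters and not a bound site. Capitals mark the CRE, its core and the CArG boxes, the sequences run 5′ to 3′ on the strand of the gene, and bases in coding genes' exons were left off at the 3′ end. Dusp1 is shown from chr17:26508520-26508722 (minus strand), Dusp8 from chr7:142095285-142095534 (minus strand) and Dusp5 from chr19:53528895-53529108 (plus strand). The RefSeq start of Dusp8 lies inside the gene span given below, which begins at 142095843 on the minus strand. Its window is therefore before the RefSeq start but within that span. The windows of Dusp10 and Dusp14, not shown, lie within their gene spans too.
Dusp1: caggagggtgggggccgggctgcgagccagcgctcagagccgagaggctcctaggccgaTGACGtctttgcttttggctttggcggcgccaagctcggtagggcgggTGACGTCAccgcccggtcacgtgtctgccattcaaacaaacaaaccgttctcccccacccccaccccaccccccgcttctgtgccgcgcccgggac
Dusp8: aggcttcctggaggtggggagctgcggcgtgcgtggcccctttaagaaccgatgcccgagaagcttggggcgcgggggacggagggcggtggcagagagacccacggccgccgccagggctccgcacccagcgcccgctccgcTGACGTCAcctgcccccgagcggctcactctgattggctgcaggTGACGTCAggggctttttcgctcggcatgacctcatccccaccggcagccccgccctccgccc
Dusp5: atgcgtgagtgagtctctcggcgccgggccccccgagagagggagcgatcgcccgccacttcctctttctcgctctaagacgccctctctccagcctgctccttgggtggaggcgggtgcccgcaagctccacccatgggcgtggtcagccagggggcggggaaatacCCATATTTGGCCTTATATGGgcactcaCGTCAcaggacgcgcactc

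Transcript levels of the 10 genes were first compared with each other within each group, on the TPM scale, which is per length of transcript. In untreated BMDMs, Dusp4 was the most abundant member at 101 ± 3.52 TPM (SD, n = 2 here and below), followed by Dusp7 at 79.5 ± 1.69 TPM. Dusp6 and Dusp1 came next at 19.7 ± 0.063 and 19.5 ± 0.785 TPM, and their libraries overlapped. Below them stood Dusp16, Dusp2, Dusp5, Dusp10, Dusp8 and Dusp14 in this order, from 9.11 to 0.108 TPM, with no overlap between neighbours. In the LPS libraries, Dusp2 at 503 ± 55.2 TPM and Dusp1 at 462 ± 26.9 TPM led and overlapped each other, followed by Dusp16 at 62.7 ± 1.09 TPM and Dusp4 at 45.7 ± 0.913 TPM. The lowest were Dusp8 at 0.812 ± 0.034 TPM and Dusp10 at 0.734 ± 0.427 TPM, which overlapped. In Met + LPS, Dusp1 led at 414 ± 22.4 TPM, followed by Dusp2 at 238 ± 3.97 TPM and Dusp4 at 187 ± 15.1 TPM, and these did not overlap. At the low end, neighbouring values of Dusp6, Dusp14 and Dusp10 overlapped (4.34 ± 0.287, 3.67 ± 0.674 and 3.18 ± 0.071 TPM).

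**Figure D1:**
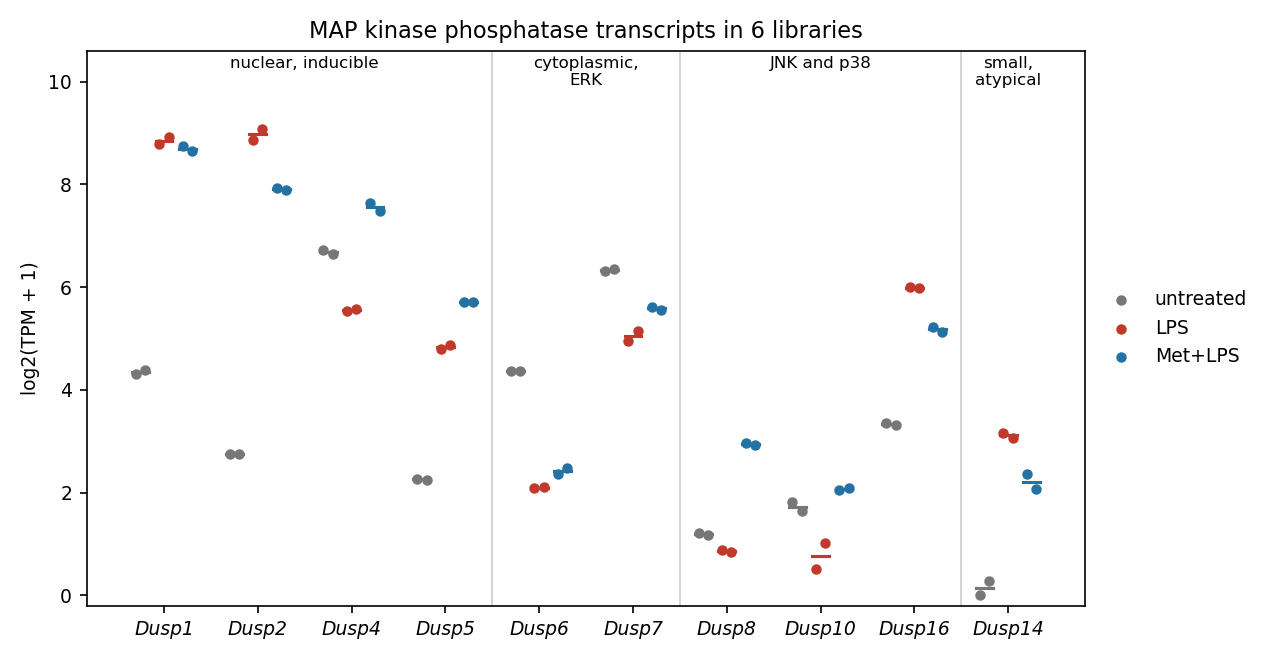
Levels of the 10 genes in each library, as log2(TPM + 1); each point is 1 of the 2 libraries of a group, the short line is their mean, and vertical lines part the role groups. Dusp1 and Dusp2 sit highest in LPS, Dusp4 is lowest in LPS and highest in Met + LPS, and Dusp8 sits highest in Met + LPS.

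The summed level of the 10 transcripts was 242 ± 1.43 TPM in untreated libraries, 1145 ± 86.3 TPM after LPS and 991 ± 44.2 TPM after metformin and LPS, and its make-up differed between the groups. Dusp4 held 41.8% ± 1.21 of the sum in untreated cells, 4.0% ± 0.222 after LPS and 18.9% after metformin and LPS. Dusp7 held 32.8% ± 0.892, 2.81% ± 0.074 and 4.75%. Dusp1 held 8.03% ± 0.371, 40.4% ± 0.695 and 41.8% ± 0.397 in the same order, so that its share was alike in both LPS-treated groups. Dusp2 held 2.37% ± 0.0046, 43.9% ± 1.52 and 24.1%. By role, the nuclear group held 53.8%, 90.6% and 89.9% of the sum, the cytoplasmic group 40.9%, 3.10% and 5.19%, and the group that prefers JNK and p38 held 5.24%, 5.62% and 4.55%. These shares are descriptions without a test.

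**Figure D2:**
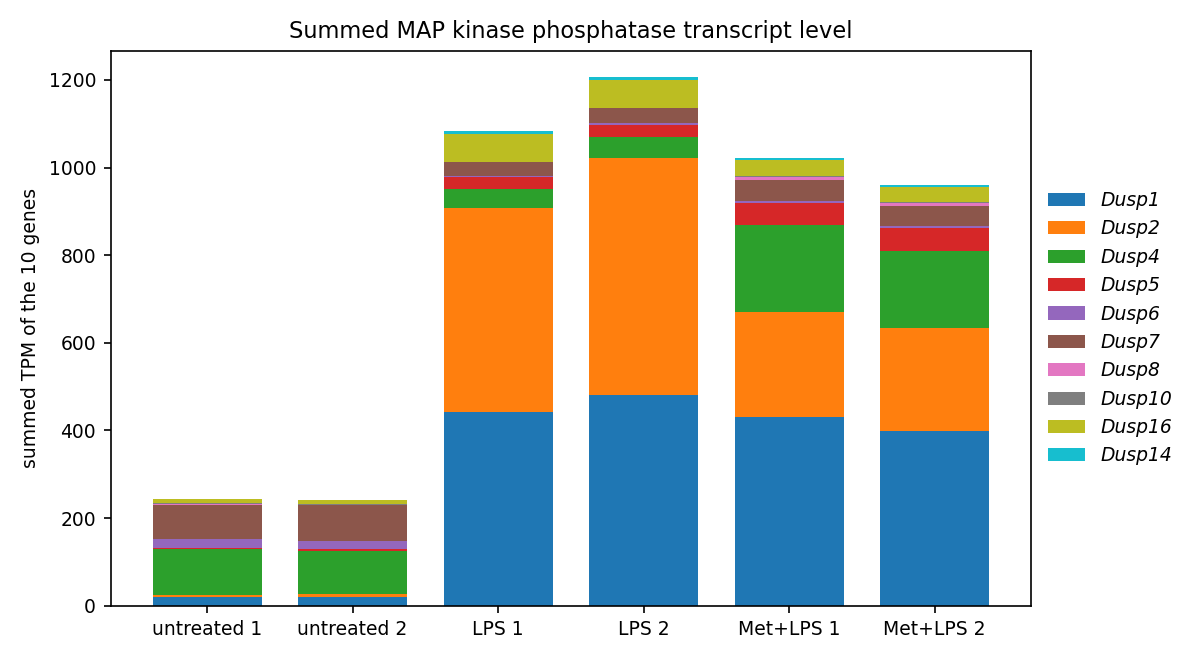
Summed TPM of the 10 genes in each of the 6 libraries, stacked by gene, from 0. Dusp4 and Dusp7 fill most of the untreated bars (41.8% and 32.8% of the sum), Dusp1 and Dusp2 most of the LPS bars (40.4% and 43.9%), and the Dusp4 part is larger again in Met + LPS (18.9%).

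The first comparison asked how 2 h of LPS changed the phosphatase transcripts. Of the 10 members, 5 rose and 1 fell past an adjusted p of 0.01 and an absolute log2 fold change of 2, where 6.08% of all tested genes were called (3.72% higher, 2.37% lower). Dusp1, Dusp2, Dusp5, Dusp14 and Dusp16 rose, and Dusp6 fell. Dusp14 counts here with a limit, since it passed the filter through LPS-treated libraries alone. By the adjusted p alone, Dusp4, Dusp7 and Dusp10 fell as well, which made 5 higher and 4 lower, but 76.3% of all genes passed that threshold (16.2% higher, 60.1% lower). The libraries of the groups did not overlap for any of the 10, as for 91.6% of all genes. The median log2 fold change was 1.12 over the members and -0.48 over all genes tested. Median-ratio scaling moved the median of all genes to -0.01, and on that scale Dusp4 lay at -0.61, Dusp6 at -1.80, Dusp7 at -0.76, Dusp8 at -0.07 and Dusp10 at -0.64. On that scale Dusp6 no longer passed the fold cut-off, and Dusp10 no longer passed the adjusted p (0.0218 by limma).

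The second comparison asked what metformin given before LPS changed, against LPS alone. Here 4 members rose (Dusp4, Dusp5, Dusp8 and Dusp10) and 3 fell (Dusp2, Dusp14 and Dusp16) past an adjusted p of 0.01 and an absolute log2 fold change of 0.7, where 8.28% of all tested genes were called (4.19% higher, 4.09% lower). Dusp7 rose as well by the adjusted p alone, a threshold that 32.6% of all genes passed (14.5% higher, 18.0% lower), while Dusp1 and Dusp6 did not pass it. The median log2 fold change was 0.43 over the members and -0.03 over all genes. The libraries did not overlap for any member, as for 73.8% of all genes. Both comparisons use the same LPS libraries, so the values of each member are given side by side and not as 2 independent findings.

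**Figure D3:**
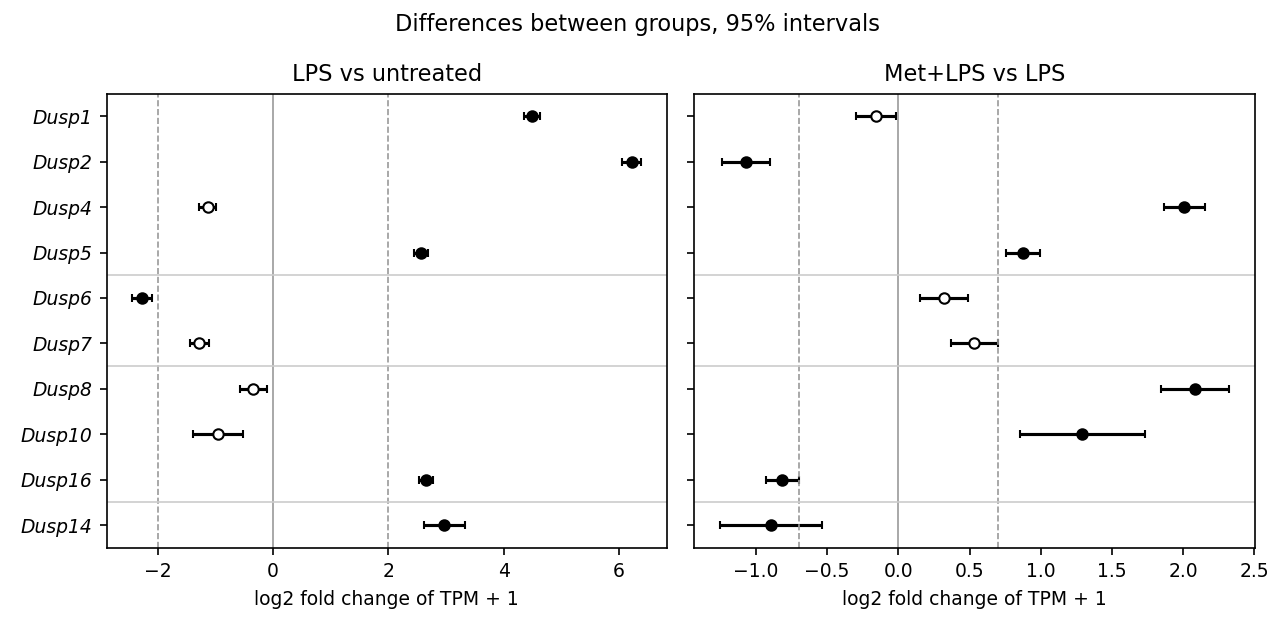
log2 fold change of TPM + 1 for each gene in LPS vs. untreated (left) and Met + LPS vs. LPS (right), with 95% intervals of the limma fit; dashed lines mark the fold cut-offs of 2 and 0.7, and filled points passed both the fold and the adjusted p cut-off. In the left panel 5 filled points lie above 0 and 1 below, and in the right panel 4 lie above and 3 below.

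Among the nuclear members, Dusp1 (ENSMUSG00000024190, GRCm38 chr17:26505590-26508519, minus strand) encodes the phosphatase that turns off p38 and JNK in LPS-treated macrophages. It measured 18.9 and 20.0 TPM in untreated, 443 and 481 TPM in LPS, and 430 and 398 TPM in Met + LPS libraries. Both LPS-treated groups stood far above the untreated libraries and close to each other, with Met + LPS just below LPS. Its transcript level rose 23.7-fold with LPS, a log2 fold change of 4.50 (SE 0.058, adjusted p = 1.09e-08). The difference of Met + LPS from LPS was -0.16 (95% interval -0.30 to -0.02, adjusted p = 0.0642), which did not pass the test. It passed with limma voom on recovered reads (-0.16, adjusted p = 0.00367), where the reads of Dusp1 had to be rounded, but not with voom and median-ratio scaling (-0.14, adjusted p = 0.0112). Its exons share 11 bases with Ergic1 on the opposite strand.

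Dusp2 (ENSMUSG00000027368, chr2:127336159-127338376, plus strand), a nuclear phosphatase of activated immune cells, was scarce in untreated cells and high after LPS. It measured 5.78 and 5.71 TPM in untreated, 464 and 542 TPM in LPS, and 241 and 235 TPM in Met + LPS libraries. The groups were well apart, with Met + LPS between the others. LPS raised it 87.5-fold, a log2 fold change of 6.22 (SE 0.071, adjusted p = 6.80e-09), and Met + LPS fell to 0.474 times the LPS level, a log2 fold change of -1.07 (SE 0.071, adjusted p = 7.32e-05).

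Dusp4 (ENSMUSG00000031530, chr8:34807297-34819894, plus strand), a nuclear phosphatase of ERK and JNK, moved in opposite directions in these comparisons. It measured 104 and 99.0 TPM in untreated, 45.1 and 46.4 TPM in LPS, and 198 and 177 TPM in Met + LPS libraries. The LPS libraries were lowest and the Met + LPS libraries highest, above untreated cells as well. LPS lowered it to 0.450 times the untreated level (log2 fold change -1.13, SE 0.060, adjusted p = 4.84e-06). With metformin before LPS it was 4.10-fold above LPS (log2 fold change 2.01, SE 0.060, adjusted p = 7.32e-06) and 1.85-fold above untreated cells (log2 fold change 0.88, adjusted p = 1.47e-05).

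Dusp5 (ENSMUSG00000034765, chr19:53529109-53542431, plus strand), a nuclear phosphatase specific for ERK, was higher after LPS and higher again with metformin. It measured 3.83 and 3.73 TPM in untreated, 26.7 and 28.1 TPM in LPS, and 51.0 and 51.4 TPM in Met + LPS libraries. The 3 groups followed each other without overlap. LPS raised it 7.26-fold (log2 fold change 2.57, SE 0.050, adjusted p = 6.02e-08), and Met + LPS was 1.87-fold above LPS (log2 fold change 0.88, SE 0.050, adjusted p = 4.53e-05). Of its 2473 exon bases, 547 (22.1%) overlap AC137853.2 on the opposite strand, and since the strand setting of the counting is not given in the sources used here, reads of these genes cannot be told apart.

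Of the cytoplasmic phosphatases, Dusp6 (ENSMUSG00000019960, chr10:99263231-99267489, plus strand) encodes the best known feedback inhibitor of ERK. It measured 19.6 and 19.7 TPM in untreated, 3.23 and 3.32 TPM in LPS, and 4.14 and 4.55 TPM in Met + LPS libraries. Both LPS-treated groups were far below untreated cells. LPS lowered it 6.00-fold (log2 fold change -2.27, SE 0.071, adjusted p = 4.77e-07). Met + LPS lay 0.32 above LPS on the log2 scale (95% interval 0.15 to 0.49), and the adjusted p of 0.0102 just missed the threshold. It passed with a pseudocount of 0.1 (0.00904), a filter at 5 TPM (0.00713), median-ratio scaling (0.00856) or no trend in the fit (0.00919). It missed with no filter (0.0303), the compared groups alone (0.0446), a replicate block (0.0149), voom (0.0346) and voom with median-ratio scaling (0.0276). Leaving out a library gave log2 fold changes of 0.26 to 0.37.

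Dusp7 (ENSMUSG00000053716, chr9:106368632-106375724, plus strand), the other cytoplasmic ERK phosphatase, fell with LPS and was higher with metformin before LPS. It measured 78.3 and 80.7 TPM in untreated, 29.9 and 34.6 TPM in LPS, and 47.8 and 46.3 TPM in Met + LPS libraries. The Met + LPS libraries lay between the other groups. The log2 fold change was -1.28 with LPS (SE 0.068, adjusted p = 5.20e-06) and 0.53 for Met + LPS against LPS (SE 0.068, adjusted p = 0.00107), below the fold cut-off of 0.7. The latter missed the threshold without Met + LPS replicate 1 (adjusted p = 0.0111).

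Dusp8 (ENSMUSG00000037887, chr7:142079490-142095843, minus strand), which acts on JNK and p38, was scarce without metformin. It measured 1.32 and 1.26 TPM in untreated (49 and 44 reads), 0.836 and 0.788 TPM in LPS (31 and 28 reads), and 6.76 and 6.61 TPM in Met + LPS libraries (249 and 285 reads). The Met + LPS libraries stood above all the others. The rise over LPS was 8.24-fold in TPM, and 2.09 as a log2 fold change of TPM + 1, a scale that understates the change of low genes (SE 0.099, adjusted p = 2.35e-05). The rise over untreated cells was 5.18-fold (log2 fold change 1.75, adjusted p = 6.70e-06), and LPS alone gave -0.34 (95% interval -0.58 to -0.10, adjusted p = 0.0163), which did not pass the test. That difference passed with a pseudocount of 0.1 (-0.61, adjusted p = 0.00788) and without the trend in the fit (0.00131). It did not pass with voom (-0.64, adjusted p = 0.0175), and was smaller with median-ratio scaling (-0.07, 0.549) and voom with that scaling (-0.14, 0.626). Its exons share 66 bases with Gm32786 on the opposite strand, a gene of at most 0.18 TPM in any library.

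Dusp10 (ENSMUSG00000039384, chr1:184013302-184075636, plus strand), a phosphatase of JNK and p38 with a role in innate immunity, rested on few reads. It measured 2.51 and 2.11 TPM in untreated (58 and 46 reads), 0.432 and 1.04 TPM in LPS (10 and 23 reads), and 3.13 and 3.23 TPM in Met + LPS libraries (72 and 87 reads). The LPS libraries were lowest and differed from each other more than those of the other groups did. The log2 fold change was -0.95 with LPS (SE 0.182, adjusted p = 0.00235) and 1.29 for Met + LPS against LPS (SE 0.182, adjusted p = 0.00159), while Met + LPS against untreated gave 0.34 (95% interval -0.10 to 0.78, adjusted p = 0.124). The TPM + 1 scale understates these changes, since the mean TPM was 3.15-fold lower with LPS and 4.33-fold higher in Met + LPS than in LPS. In reads per depth the latter ratio was 4.37 (2.99 to 6.57 from counting error alone), and voom gave log2 fold changes of -1.74 and 2.22. The rise over LPS missed the threshold without either Met + LPS library (adjusted p = 0.0137 and 0.0148) and with no filter on low values (0.0118). The fall with LPS missed it without either untreated replicate (0.0246 and 0.0136) and with no filter (0.0131). Against untreated cells, voom with median-ratio scaling gave 1.002 (adjusted p = 0.000272).

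Dusp16 (ENSMUSG00000030203, chr6:134715468-134792625, minus strand), which prefers JNK, was the most abundant of its role group in each group of libraries. It measured 9.23 and 9.004 TPM in untreated, 63.4 and 61.9 TPM in LPS, and 36.3 and 34.1 TPM in Met + LPS libraries. Met + LPS lay between the others, nearer to LPS on the log2 scale. LPS raised it 6.87-fold (log2 fold change 2.65, SE 0.049, adjusted p = 4.57e-08), and Met + LPS fell to 0.562 times the LPS level (log2 fold change -0.81, SE 0.049, adjusted p = 5.21e-05).

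Dusp14 (ENSMUSG00000018648, chr11:84048041-84069261, minus strand), the small atypical member, was at or near 0 without LPS. It had 0 and 3 reads in untreated libraries (0 and 0.215 TPM). The working limit used here for a count of 0 was 3 reads, which correspond to 0.203 TPM in the first library. It measured 7.90 and 7.40 TPM in LPS (117 and 105 reads) and 4.15 and 3.19 TPM in Met + LPS libraries (61 and 55 reads). The Met + LPS libraries stood between the others. The ratio of LPS to untreated reads per depth was 74.3, with an exact interval of 25.1 to 363 from counting error alone, and limma gave a log2 fold change of 2.97 (SE 0.148, adjusted p = 3.90e-06). Dusp14 was tested only because its LPS-treated libraries passed the filter. A rise over untreated cells was thus partly built into its selection, and this p-value is no independent support for it. Met + LPS was 0.474 times LPS in reads per depth (0.376 to 0.596), and the log2 fold change was -0.90 (SE 0.148, adjusted p = 0.00311). This call was lost with a pseudocount of 0.1 (adjusted p = 0.141), with no filter (0.0196), and without LPS replicate 1 (0.0244), LPS replicate 2 (0.0188) or Met + LPS replicate 2 (0.0207).

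Against untreated BMDMs, Met + LPS left 4 members (Dusp1, Dusp2, Dusp5 and Dusp14) higher and 0 lower past an adjusted p of 0.01 and an absolute log2 fold change of 2, where 5.35% of all tested genes were called (3.18% higher, 2.16% lower). The values were 4.34 for Dusp1, 5.15 for Dusp2, 3.45 for Dusp5 and 2.08 for Dusp14. The last carries the same limit, since Dusp14 passed the filter through LPS-treated libraries alone. The call of Dusp14 was lost without untreated replicate 1 (1.94) or Met + LPS replicate 1 (1.93), both below the fold cut-off. By the adjusted p alone 7 members were higher and 2 lower, and 75.1% of all genes passed that threshold (16.3% higher, 58.8% lower). The libraries did not overlap for any member, as for 90.7% of all genes. The members below the fold cut-off were Dusp4 at 0.88, Dusp8 at 1.75, Dusp16 at 1.84, Dusp7 at -0.75 and Dusp6 at -1.95. Dusp8 passed the fold cut-off with a pseudocount of 0.1 (2.29), median-ratio scaling (2.09), voom (2.38) and voom with median-ratio scaling (2.90), and Dusp16 with median-ratio scaling (2.33) and voom with median-ratio scaling (2.49). Median-ratio scaling thus gave 6 higher members in place of 4. On that scale Dusp7 lay at -0.21 and no longer passed (adjusted p = 0.0302).

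Genes around the phosphatases in the pathway were counted from fixed lists. Over all tested genes, 6.08% passed both cut-offs with LPS and 8.28% in Met + LPS vs. LPS, and the list counts are to be read beside these shares. Of 16 other dual-specificity phosphatases, such as Dusp3 and Dusp22, 11 could be tested, and by the adjusted p alone 0 rose and 9 fell with LPS, with a median log2 fold change of -0.81 and none past the fold cut-off. Over all tested genes 60.1% fell by that threshold, with a median of -0.48 that median-ratio scaling moved to -0.01. With metformin before LPS, 1 of the 11 rose by the adjusted p (Dusp9, 0.60) and 2 fell (Dusp23 at -0.69 and Dusp28 at -0.43), with a median of -0.00396 and none past both cut-offs. By that adjusted p, 14.5% of all tested genes were higher and 18.0% lower. Of 13 MAP kinases 8 could be tested, and 0 passed both cut-offs with LPS. With metformin Mapk7 (ERK5) rose by 0.71 (adjusted p = 0.00037) and Mapk11 (p38 beta) fell, with a log2 fold change of -0.90 (adjusted p = 0.00223).

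Of 16 upstream kinases, 1 passed both cut-offs with LPS, a share near the 6.08% of all tested genes. It was Map3k8 (TPL2, the kinase that links TLR4 to MEK and ERK). Map3k8 rose from 18.4 ± 1.5 to 133 ± 3.63 TPM with LPS (log2 fold change 2.79, adjusted p = 8.01e-08) and was 69.0 ± 0.0694 TPM in Met + LPS (-0.94 against LPS, adjusted p = 5.76e-05). Map3k2 rose with metformin by 0.71 (adjusted p = 0.00046). Of 10 kinases downstream of ERK and p38, Mapkapk2 (MK2) rose with LPS by 2.47 (adjusted p = 2.29e-08), and Mknk2 fell with LPS (-2.13, adjusted p = 2.45e-07) and was higher with metformin (0.87, adjusted p = 7.25e-05). Rps6ka5 (MSK1), a kinase of CREB, was lower with metformin (-0.74, adjusted p = 0.000282).

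Of 13 other MAP kinase inhibitors, 9 could be tested. Errfi1, a feedback inhibitor of EGF receptors, rose from 8.28 ± 0.186 to 283 ± 15.7 TPM with LPS (log2 fold change 4.93, adjusted p = 2.42e-08) and was 73.6 ± 8.20 TPM in Met + LPS (-1.93 against LPS, adjusted p = 1.61e-05). Spry2, which restrains receptor signalling to ERK, measured 16.3 ± 0.00104, 3.15 ± 0.179 and 9.55 ± 0.484 TPM in untreated, LPS and Met + LPS, with log2 fold changes of -2.06 (adjusted p = 6.60e-07) and 1.35 (adjusted p = 3.00e-05). Spry3 was higher (0.86, adjusted p = 0.00381) and Spred2 lower (-0.71, adjusted p = 0.000176) with metformin. The level of Spry3 was near 0 in LPS (0.0617 ± 0.00184 TPM) and low in Met + LPS (0.939 ± 0.263 TPM). Both were below its 2.88 ± 0.143 TPM in untreated cells. Of 10 genes that follow ERK activity, 6 could be tested, and Spry2 stands in this list too. Egr1, an immediate early transcription factor, measured 4.34 and 3.92 TPM in untreated, 4.07 and 4.95 in LPS, and 26.9 and 20.3 in Met + LPS libraries. It was higher in both Met + LPS libraries alone, with a log2 fold change of 2.15 against LPS (adjusted p = 7.59e-05). Phlda1 measured 0.596 and 0.063 TPM in untreated, 4.35 and 5.41 in LPS, and 3.48 and 3.64 in Met + LPS libraries. It rose with LPS (2.17, adjusted p = 6.93e-05), but it passed the filter through LPS-treated libraries alone. As for Dusp14, a rise was thus partly built into its selection, and this p-value is no independent support for it. Ccnd1 (cyclin D1) was lower with metformin (-0.71, adjusted p = 0.000465).

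**Figure D4:**
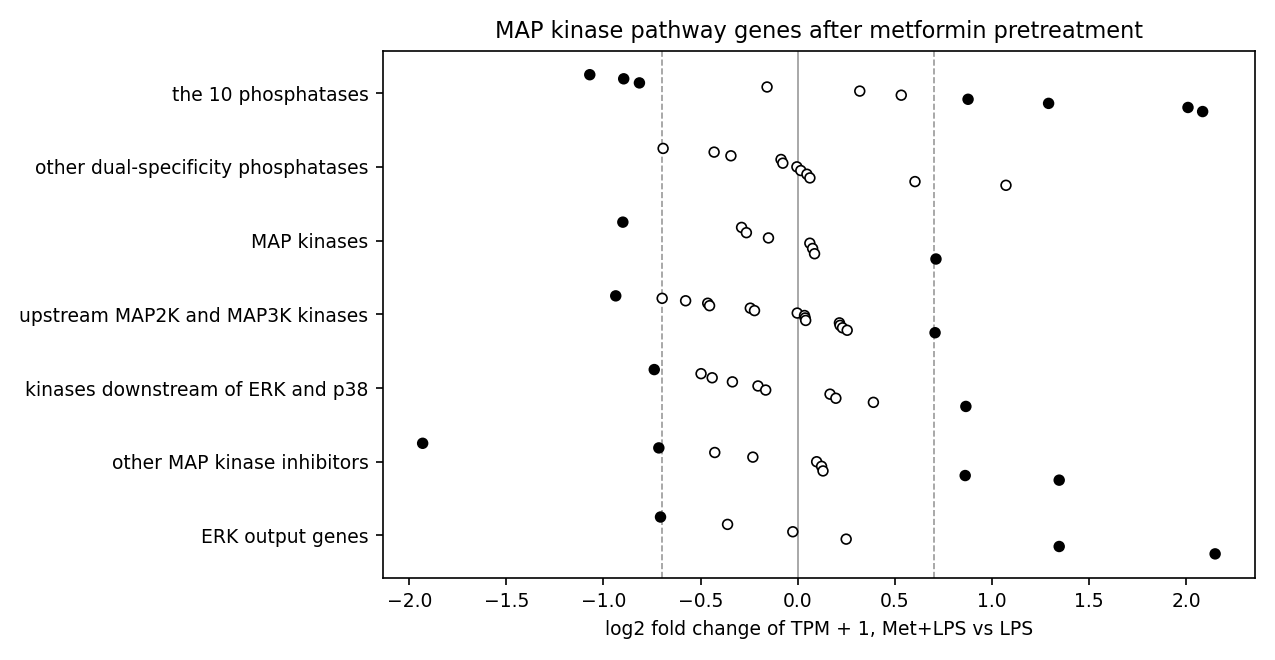
log2 fold change of TPM + 1 in Met + LPS vs. LPS for the tested genes of each list; filled points passed an adjusted p of 0.01 and the fold cut-off of 0.7 (dashed lines). Of the 10 phosphatases 7 are filled, from -1.07 for Dusp2 to 2.09 for Dusp8, and of the 11 other dual-specificity phosphatases 0 are, where 8.28% of all tested genes passed. Vertical spacing within a row only separates points.

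The genes whose pattern was most like that of Dusp1 over the 6 libraries, by Pearson's r of log2(TPM + 1) among 8393 genes, were Nfkbia, Znfx1, Cmpk2, Ifit3 and Stk40, with r between 0.9998 and 0.9999. The 6 points fall into groups, so r mainly describes the difference of untreated from LPS-treated libraries, and no p is given. Nfkbia, which encodes the NF-kB inhibitor IκB-α, measured 99.2 and 99.6 TPM in untreated, 2633 and 2764 in LPS, and 2429 and 2334 in Met + LPS libraries. As for Dusp1, Met + LPS lay just below LPS.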

How the data were processed

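RNA-seq of 3 groups of 2 BMDM libraries was analysed. The authors aligned reads to GRCm38 with STAR 2.6.1d and SAMtools 1.9, counted them per gene with featureCounts (Subread 1.6.3) and deposited TPM values without pooling replicates. How counts became TPM is not given in the sources used here. Genes that reached 1 TPM in at least 2 libraries were tested on log2(TPM + 1) with limma 3.58.1 in R 4.3.3 (eBayes with a trend, 6 libraries in the fit, 3 residual degrees of freedom, Benjamini-Hochberg adjustment over 12755 genes). The fold cut-offs follow the study's methods, except that the cut-off of 2 was also used for Met + LPS vs. untreated. "Rose" and "fell" require an adjusted p under 0.01. The fit was also run on simulated reads, with changes placed in Met + LPS alone, no LPS effect and the same dispersion for every gene. These settings are simpler than the real data, so that run does not measure the error rates here.

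Reads were recovered as whole multiples of TPM times GENCODE exon length, which fitted 96.1% to 96.3% of values above 0 within 0.02 of a read. For Dusp1 they were not whole and no reads are given. Counting intervals (95%, exact) and the limit of 3 reads cover counting error only. Plots and tables were made in Python 3.11.15 (pandas 2.3.3, matplotlib 3.10.9).

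The members, gene lists and cut-offs were chosen with earlier results of these data known. All 10 members are named. List genes are named where they pass both cut-offs in LPS vs. untreated or Met + LPS vs. LPS, at most 4 per list and comparison. Dusp3, Dusp22, Dusp9, Dusp23 and Dusp28 were named after their values were seen. The 5 genes nearest Dusp1 were sought among genes with a group mean of at least 10 TPM. Alternatives were the pseudocount, filters, median-ratio scaling, a fit of the compared groups, a replicate block, a fit without the trend, a threshold of 0.05, limma voom on recovered reads and leaving out each library. Voom with median-ratio scaling was added after seeing the data.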

Additional observations from a re-analysis of the deposited data

How the results depend on the processing

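The log2 fold changes of the 10 members kept their direction in all 477 repeats under alternative settings, but many of these repeats could not change it. The filters, a fit of the compared groups, a replicate block, no trend and another threshold leave the fold change as it was. So does leaving out a library of the group not compared. The libraries of the compared groups did not overlap for any member. Another pseudocount, or leaving out a library of a compared group, could then change the size of a difference but not its direction. Direction was thus tested only by median-ratio scaling and by voom, with or without that scaling. The side of the cut-offs was kept in 457 repeats. In 9 repeats the member was now past them, all in Met + LPS vs. untreated (Dusp8 in 4, Dusp6 in 3 and Dusp16 in 2). In 11 it was no longer past. With LPS, the count of lower members was 0 in place of 1 under median-ratio scaling (Dusp6). Over all genes, LPS called 776 genes, against 1512 with a pseudocount of 0.1, 1595 with voom and 1378 with voom and median-ratio scaling. Under median-ratio scaling these were 663 higher and 129 lower in place of 474 and 302, and for Met + LPS vs. untreated 571 and 98 in place of 406 and 276. For Met + LPS vs. LPS by the adjusted p alone, leaving out a library gave 3 to 5 higher members in place of 5 (3 without Met + LPS replicate 1), and 2561 to 2759 genes in place of 4156, with 2662 when the compared groups alone were fitted. In these repeats fewer residual degrees of freedom were left, and a lone library is assumed to vary like the other groups. For Met + LPS vs. untreated, 1 member (Dusp6) was lower with a pseudocount of 0.1, 1 with voom and 0 to 1 when a library was left out (1 without Met + LPS replicate 2), in place of 0. The higher members numbered 5 with a pseudocount of 0.1 or voom, 6 with median-ratio scaling or voom with it, and 3 to 4 when a library was left out, in place of 4. All genes then numbered 682, against 1457 with a pseudocount of 0.1, 1562 with voom and 1299 with voom and median-ratio scaling. By the adjusted p alone, 1 member was lower under median-ratio scaling in place of 2. The cause of these shifts was not tested. The differences of replicate 1 from 2 correlated at -0.004, 0.028 and 0.006 between groups, so same-numbered libraries showed no shared deviation. The sample titles carry the letters A and B for these replicates. Such correlations cannot tell whether libraries of the same letter were prepared together. A replicate block changed no member's call and gave 777, 1044 and 682 genes. Depth limits Dusp8, Dusp10 and Dusp14 most.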
